A study of Mus musculus with 10 samples.

Results

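The inflammatory chemokines described here are 10 inducible ligand genes, 6 of the CC family (Ccl2, Ccl3, Ccl4, Ccl5, Ccl6 and Ccl9) and 4 of the CXC family (Cxcl1, Cxcl2, Cxcl9 and Cxcl10). They were found by gene symbol in a table of 54532 mouse genes, and all 10 were present. RNA had been sequenced from the spleens of 5 DUSP6 KO mice (Dusp6tm1Jmol, given as "DUSP6 Knockdown" in the genotype label) and 5 WT mice (C57BL/6J). The deletion is carried by every cell of the animal and is not restricted to a cell type. All 10 mice, WT included, had arthritis induced by KRN serum (KSIA): serum pooled from arthritic KRN x NOD F1 mice had been injected into the peritoneum (100 µL on days 0 and 2). The spleens were taken on day 9, at the peak of arthritis, from mice of 8 to 12 weeks. No group without arthritis was analysed here, so the values compare genotypes during arthritis and give no induction by the serum. Each library came from 1 spleen and is named below by its genotype and animal number.

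Chemokines are small secreted proteins that draw leukocytes along a gradient by binding receptors coupled to G proteins. Ccl3, Ccl4 and Ccl5 call macrophages, T cells and NK cells, and Ccl3 and Ccl5 act on Ccr1, the receptor of the mouse ligands Ccl6 and Ccl9. Ccl2 calls classical monocytes through Ccr2, Cxcl1 and Cxcl2 call neutrophils through Cxcr2, and Cxcl9 and Cxcl10, which are induced by interferon, call activated T cells and NK cells through Cxcr3. Several of these genes are transcribed within minutes to hours of a stimulus through NF-kB, AP-1 or interferon-activated factors, and DUSP6 is a phosphatase that switches off ERK, a kinase upstream of AP-1.

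The CC genes lie on chromosome 11, with Ccl2 apart from the others, and the CXC genes in 2 pairs on chromosome 5 (build GRCm38). Ccl5 (11:83525778-83530518), Ccl9 (11:83572919-83578636), Ccl6 (11:83587882-83593087) and Ccl3 (11:83647844-83649355) are on the minus strand, and Ccl4 (11:83662584-83664683) and Ccl2 (11:82035571-82037453) on the plus strand. Cxcl1 (5:90891241-90893115) and Cxcl2 (5:90903871-90905938) are neighbours on the plus strand, and Cxcl9 (5:92321347-92328079) and Cxcl10 (5:92346638-92348889) neighbours on the minus strand. RefSeq windows around the gene start (build GRCm38.p6) were held for 7 of the 10 genes: Ccl3, Ccl6, Ccl9, Cxcl1, Cxcl2, Cxcl9 and Cxcl10. Distances below are counted from the RefSeq start. It lies 23 bases upstream of the start in the deposited table for Ccl3, 4 bases downstream for Cxcl1 and 28 bases downstream for Cxcl2, and at the same base for the other 4. These windows of 300 bases were searched on both strands for the NF-kB consensus, the AP-1 site TGANTCA, the ISRE core GAAANNGAAA and the TATA box TATAAA. The NF-kB consensus was found in 4 of the 7 windows (Ccl9, Cxcl1, Cxcl2 and Cxcl10), against 4.51% of 32851 windows of all genes. TGANTCA was found in 3 (Ccl9, Cxcl9 and Cxcl10), against 7.81% of all windows. GAAANNGAAA was found only in that of Cxcl10 among the 7 (3.44% of all windows), and TATAAA in those of Ccl9 and Cxcl9 (13.6% of all windows).

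The stretches around the NF-kB matches of the neighbours Cxcl1 (chr5:90891149-90891209, plus strand) and Cxcl2 (chr5:90903777-90903837, plus strand) are shown because both hold the same 11 letters, which are in capitals. Read position by position, the 2 stretches of 61 bases had the same base at 30 positions. The matches began 71 bases before the RefSeq start of Cxcl1 and 97 bases before that of Cxcl2, and in each the consensus matched on both strands with 9 bases in common.
Cxcl1: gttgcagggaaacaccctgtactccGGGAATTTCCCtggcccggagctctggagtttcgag
Cxcl2: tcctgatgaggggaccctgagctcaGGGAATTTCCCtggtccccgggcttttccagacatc

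Cxcl10 is shown for its close run of matches: the bases from 220 to 61 before its start (chr5:92348950-92349109, minus strand) hold an ISRE core, 2 NF-kB matches and an AP-1 site, in this order and in capitals. The 150 bases before the RefSeq start of Ccl3 (chr11:83649379-83649528, minus strand), the gene with the largest difference between the genotypes, hold none of the 4 motifs, and its whole window of 300 bases held none either. The window of Ccl6, whose level differed little between the genotypes, held none as well. A match of letters is a description and not a bound site.
Cxcl10: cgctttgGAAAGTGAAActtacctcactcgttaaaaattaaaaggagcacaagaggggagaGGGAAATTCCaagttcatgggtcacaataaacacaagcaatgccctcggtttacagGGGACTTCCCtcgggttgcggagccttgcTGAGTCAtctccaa
Ccl3: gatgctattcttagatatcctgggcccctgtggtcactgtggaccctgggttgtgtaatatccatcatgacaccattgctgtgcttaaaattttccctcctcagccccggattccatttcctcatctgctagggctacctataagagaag

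The libraries held 14990474 to 19822673 reads on genes. Dusp6 was at 0.308 to 0.624 FPKM in the 5 DUSP6 KO libraries and at 16.6 to 23.98 FPKM in the 5 WT libraries, so every library matched its genotype label. FPKM is the number of fragments per kilobase of gene, scaled by the fragments of the library, a level that can be compared between genes. Markers of spleen were present in every library (summed level of 632 to 1603 FPKM over 6 B cell genes and of 1159 to 1775 FPKM over 10 red pulp macrophage genes). The library WT 67 stood apart. The summed level of 10 exocrine pancreas genes was 15977 FPKM there and 192 FPKM in WT 65, against at most 0.452 FPKM in the other 8 libraries. WT 67 was also the highest of the 10 libraries for 5 of the 10 chemokines (Ccl3, Ccl5, Ccl6, Ccl9 and Cxcl10), so values for these are given with and without it. At the other end, DUSP6 KO 01 was the lowest library for 5 of the 10.

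Levels spanned a wide range. Ccl5 was the most abundant, with a mean of 85.5 FPKM over the 10 libraries, and was followed by Ccl6 (22.8), Cxcl9 (10.9), Cxcl10 (9.76), Ccl9 (5.66), Ccl4 (2.16), Ccl3 (1.77), Ccl2 (0.504), Cxcl1 (0.170) and Cxcl2 (0.0694). Of neighbours in this order, only Ccl5 and Ccl6 had separate ranges over the libraries. Within libraries the order was steadier: Ccl6 was above Cxcl9, Cxcl10 above Ccl9, Ccl9 above Ccl4, Ccl3 above Ccl2, and Ccl2 above Cxcl1 in all 10, and Cxcl1 was above Cxcl2 in 9. It could not be set for Cxcl9 and Cxcl10, where Cxcl9 was higher in 6 of 10 libraries, or for Ccl4 and Ccl3, where Ccl4 was higher in 7 of 10. Ccl5 alone made up 60.8% ± 4.69 (SD, n = 5) of the summed level of the 10 chemokines in DUSP6 KO spleens and 61.2% ± 2.05 (SD, n = 5) among WT.

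**Figure D1:**
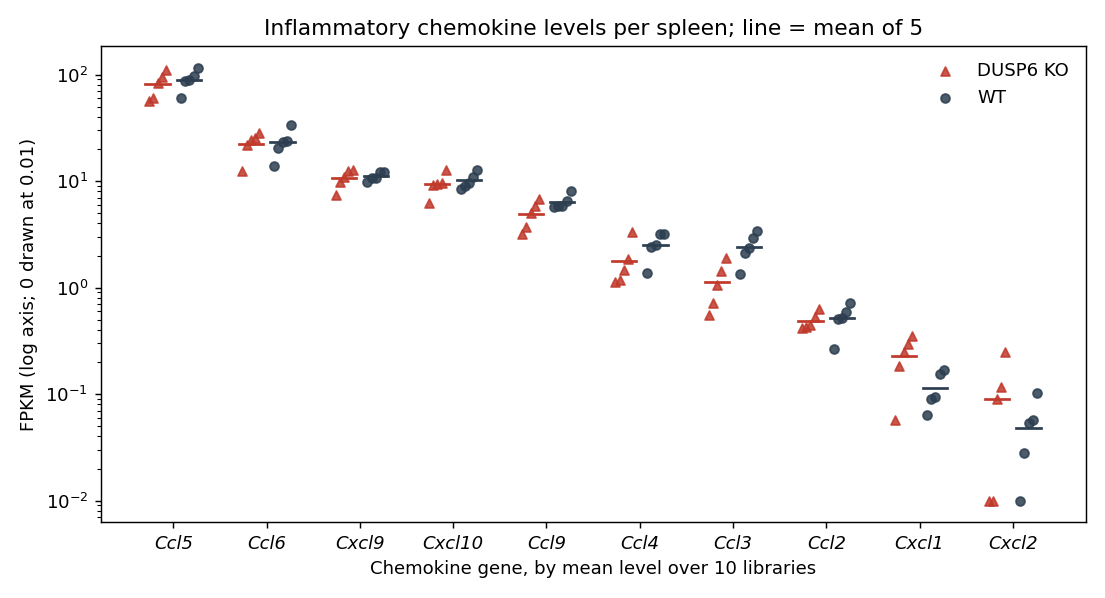
Level of each of the 10 chemokines in each spleen, in FPKM on a log axis, with values of 0 drawn at 0.01. Triangles are the 5 DUSP6 KO libraries, circles the 5 WT libraries and lines their means. The groups overlap for all 10 genes, and Ccl3 has the widest separation, with 3 of 5 DUSP6 KO libraries below the lowest WT library.

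The first question was whether deletion of DUSP6 altered any of these ligands in the arthritic spleen. None of the 9 chemokines that passed the filter on low values (a mean of at least 0.1 FPKM) had an adjusted p of 0.05 or less in limma with Benjamini-Hochberg adjustment over 21296 genes, where 0.0704% of all genes had (15 genes, 34 without DUSP6 KO 21 and 10 without WT 83). None of the 9 had with limma voom. At an unadjusted p under 0.05 in limma there was 1 of 9, Ccl3, which was lower in DUSP6 KO, against 5.66% of all genes tested in either direction, 3.03% in the lower and 2.62% in the higher direction. None of the 10 chemokines had 5 against 5 values without overlap, against 1.11% of the genes tested. Fold changes were negative for 8 of the 9 (51.0% of all genes tested), with a median log2 fold change of -0.13, against a median of -0.0046 for all genes. These 9 are not independent, since 18 of 21 pairs of the more abundant ones varied in the same direction between libraries. With each library left out, their median ran from -0.21 (without WT 77) to -0.038 (without DUSP6 KO 01). The sign of Ccl2, Ccl6, Cxcl9 and Cxcl10 turned without some single libraries. Ccl3 kept an unadjusted p under 0.05 in limma whichever library was left out. The count of chemokines at that threshold rose when some single libraries were left out. It was 4 without DUSP6 KO 26 (Ccl3, Ccl4, Ccl9 and Cxcl1), 2 without DUSP6 KO 21 (Ccl3 and Ccl9) and 2 without WT 77 (Ccl3 and Ccl4). The paper states that the DUSP6 KO and C57BL/6J mice were bought as separate strains, and it describes no littermate controls. Differences of strain background or colony therefore cannot be told apart from the deletion. The p-values measure only the spread between these animals. In RNA of whole spleen, fewer cells of a type and less RNA per cell cannot be told apart.

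**Figure D2:**
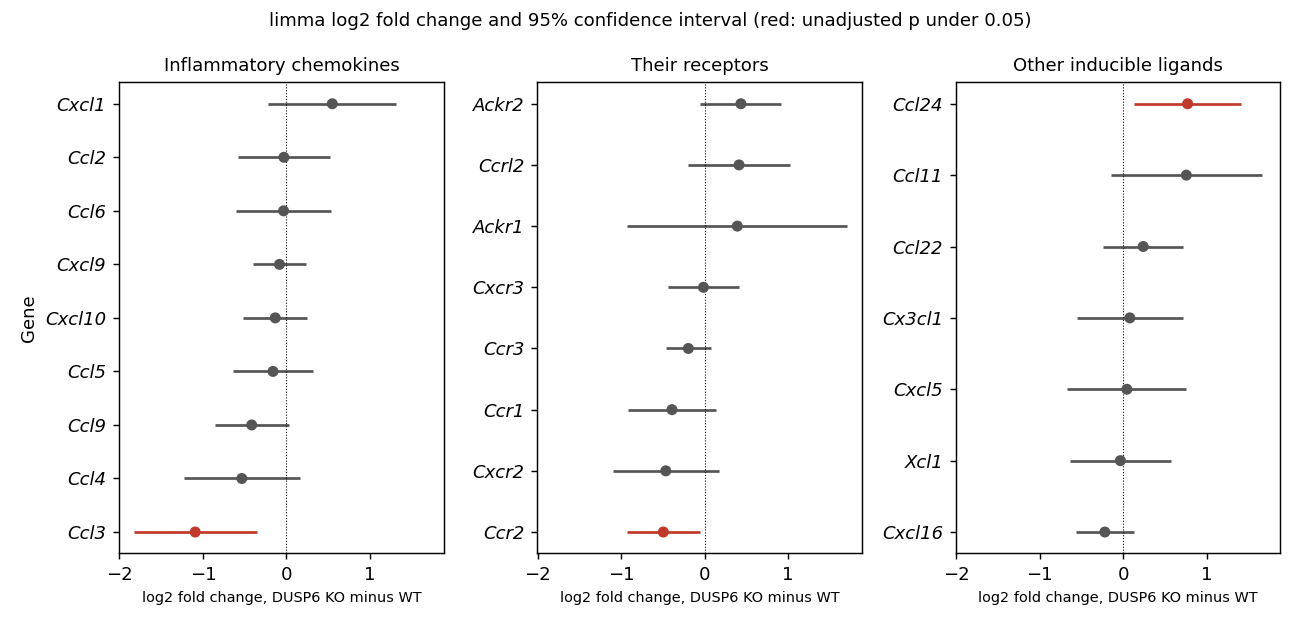
Log2 fold change (DUSP6 KO minus WT) with its 95% confidence interval from limma on log2(FPKM + 0.1), for the 9 chemokines tested, 8 receptors and the 7 other inducible ligands tested that had reads in every library. Red marks an unadjusted p under 0.05, which Ccl3, Ccr2 and Ccl24 had. No gene shown had an adjusted p of 0.05 or less.

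Ccl3, or MIP-1α, which is made by activated macrophages, NK cells and other leukocytes, had the largest difference. It was at 0.551, 0.723, 1.05, 1.43 and 1.88 FPKM in the DUSP6 KO libraries and at 1.33, 2.11, 2.35, 2.90 and 3.42 FPKM in the WT libraries. All 5 DUSP6 KO values were below the WT median and 3 were below the lowest WT value, but the highest DUSP6 KO values (animals 73 and 21) lay above that of WT 77. The means were 1.13 ± 0.538 FPKM (SD, n = 5) and 2.42 ± 0.792 FPKM (SD, n = 5). The log2 fold change was -1.09 (SE 0.33, 95% confidence interval -1.83 to -0.36), a level 0.469 times that of WT on the log2(FPKM + 0.1) scale, with an adjusted p of 0.593 in limma and an unadjusted p of 0.00763. The two-sided exact permutation p was 0.0238, where the smallest p that 5 against 5 values can give is 0.00794. These values rested on 7 to 28 reads a library in DUSP6 KO spleens and 17 to 50 in WT. The spread was above that of counting alone, with a variance 3.498 times as large in DUSP6 KO spleens and 3.51 times in WT. By unadjusted p, Ccl3 was 134th among the genes that were lower in DUSP6 KO. Without WT 67, its highest library, the log2 fold change was -0.96 (unadjusted limma p of 0.0207 and adjusted p of 0.809), and the exact permutation p was 0.0476.

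Ccl4, or MIP-1β, the neighbour of Ccl3, which draws macrophages and T cells, had values of 1.12, 1.19, 1.45, 1.87 and 3.33 FPKM in DUSP6 KO spleens and of 1.37, 2.39, 2.54, 3.16 and 3.21 FPKM in WT. The DUSP6 KO range enclosed that of WT, and DUSP6 KO 26 was the highest of all 10 libraries. Its log2 fold change was -0.53 (SE 0.31, 95% confidence interval -1.23 to 0.16, adjusted p of 0.944 in limma, exact permutation p of 0.190). Without DUSP6 KO 26 it was -0.78, with an unadjusted limma p of 0.0143 and an adjusted p of 0.660. Without WT 77, the lowest WT library, it was -0.73 (unadjusted limma p of 0.0318, adjusted p of 0.799). The level of Ccl3 divided by that of Ccl4 was 0.683 ± 0.308 (SD, n = 5) among DUSP6 KO, with a range of 0.315 to 1.01, and 0.987 ± 0.295 (SD, n = 5) among WT, with a range of 0.658 to 1.35. These ranges overlap. Ccl3 and Ccl4 had a Pearson r of 0.649 on the log2 scale over the 10 libraries.

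**Figure D3:**
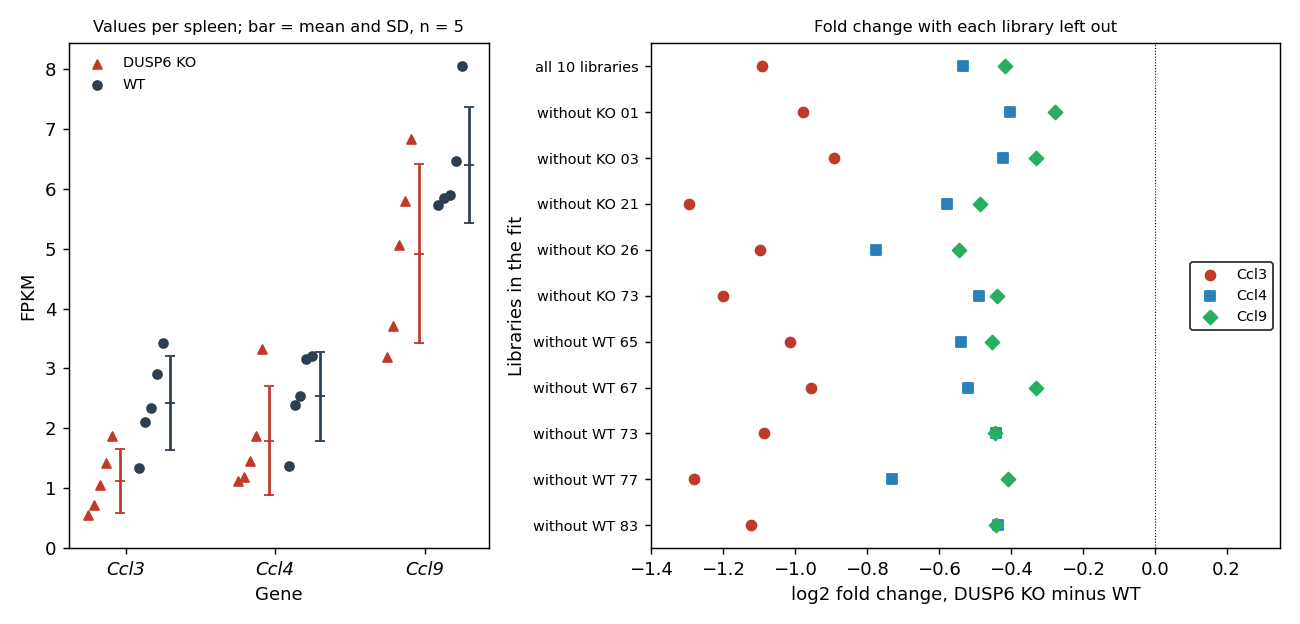
Left, level of Ccl3, Ccl4 and Ccl9 in FPKM in each spleen, with the mean and SD of 5 libraries beside each group. Right, their log2 fold change (DUSP6 KO minus WT) with all 10 libraries and without each single library. The fold change of Ccl3 ran from -1.29 to -0.89, that of Ccl4 from -0.78 to -0.40 and that of Ccl9 from -0.55 to -0.28, and none crossed 0.

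Ccl5, or RANTES, the most abundant chemokine, is stored by NK cells and memory CD8 T cells. It was at 56.0, 60.9, 83.3, 95.9 and 110 FPKM in DUSP6 KO spleens and at 60.0, 86.5, 89.2, 96.7 and 116 FPKM in WT, on 856 to 2134 reads a library. The values interleaved, with 2 low libraries in DUSP6 KO spleens and 1 in WT. The genotypes differed by a log2 fold change of -0.16 (SE 0.22, 95% confidence interval -0.64 to 0.32, adjusted p of 0.993 in limma). The interval excludes a level under 0.641 times or over 1.25 times that of WT at the stated confidence. Without WT 67 the fold change was -0.06.

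The variance of Ccl5 between spleens was 110 times that of counting alone in DUSP6 KO spleens and 78.5 times in WT, so depth did not limit it. Of the 10 marker lists, it was closest to that of cytotoxic lymphocytes. Over the 10 libraries, Ccl5 and the mean log2 level of 11 NK and cytotoxic T cell genes had a Pearson r of 0.975 (permutation p of 9e-05, 0.0063 after Benjamini-Hochberg adjustment over 70 relations of 7 chemokines with 10 marker lists). Spearman's rho was 0.927 (permutation p of 0.00041, adjusted 0.0287). Leaving out the 2 libraries farthest from the median of the marker list gave r = 0.963, and leaving out WT 67 gave 0.970. The libraries fell on either side of a gap. The 3 lowest (DUSP6 KO 01, DUSP6 KO 73 and WT 77) had Ccl5 at 56.0 to 61 FPKM, and within the other 7, r was 0.926. The difference between Ccl5 and the marker mean was 2.88 ± 0.12 (SD, n = 5) on the log2 scale in DUSP6 KO spleens and 2.92 ± 0.06 (SD, n = 5) among WT, with overlapping ranges of 2.70 to 3.004 and 2.85 to 3.01. None of the other 69 relations had an adjusted p under 0.05. For Ccl5 the next lists were those of B cells (r = 0.809, permutation p of 0.00423, adjusted 0.148, rho 0.612 with permutation p of 0.0672, adjusted 0.588) and dendritic cells (r = 0.616, permutation p of 0.0598, adjusted 0.349, rho 0.430 with permutation p of 0.221, adjusted 0.655). All quantities in a relation came from the same library and share its scaling.

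**Figure D4:**
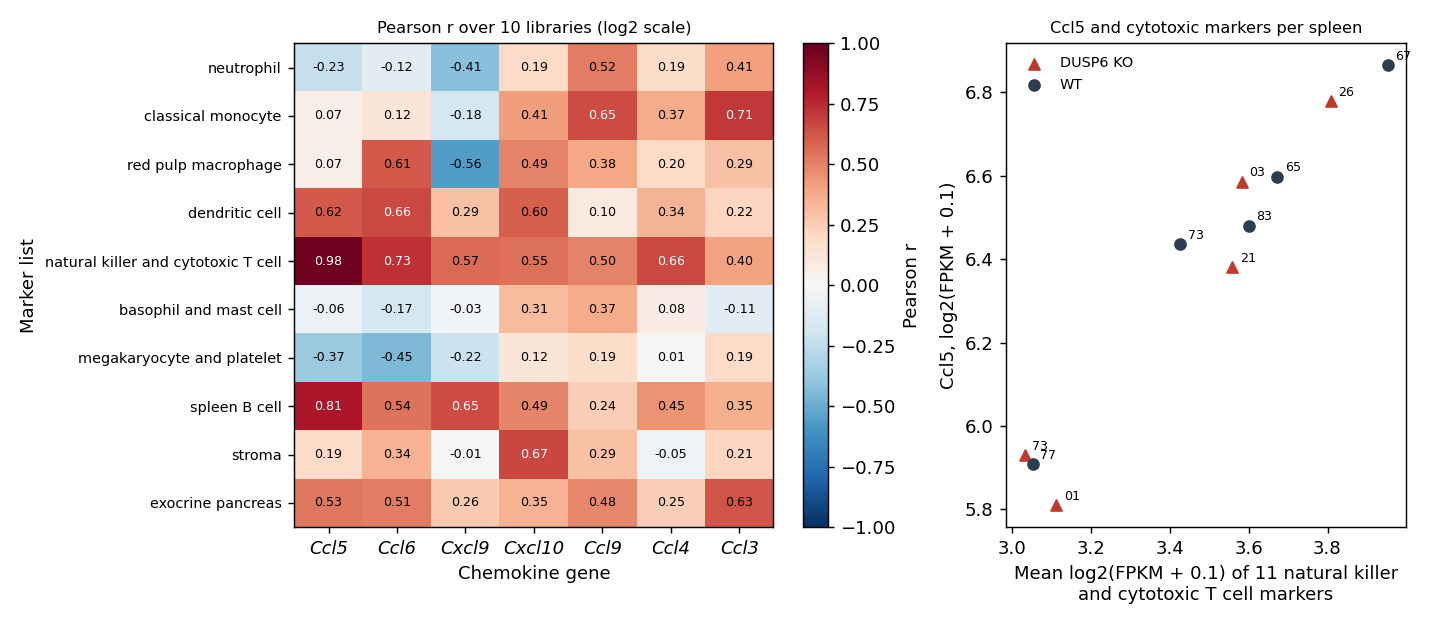
Left, Pearson r over the 10 libraries between the log2 level of each chemokine with a mean of at least 1 FPKM and the mean log2 level of each of 10 marker lists. Right, Ccl5 against the mean of 11 NK and cytotoxic T cell genes in each spleen, on the log2(FPKM + 0.1) scale and labelled by animal number. Ccl5 and this list have r = 0.975, and the 3 lowest libraries come from both genotypes.

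Ccl6 and Ccl9, ligands of Ccr1 that mouse myeloid cells make without strong induction, differed in their pattern. Ccl6 was at 12.5, 22.0, 24.1, 25.6 and 28.5 FPKM in DUSP6 KO spleens and at 14.0, 20.45, 23.4, 23.8 and 34.0 FPKM in WT. The ranges overlapped widely, with means of 22.5 ± 6.08 and 23.1 ± 7.22 FPKM (SD, n = 5 each). The estimated log2 fold change was -0.03 (95% confidence interval -0.60 to 0.54, adjusted p of 0.998 in limma), and its sign turned to 0.12 without WT 67 and to 0.16 without DUSP6 KO 01.

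Ccl9 was at 3.18, 3.70, 5.07, 5.79 and 6.83 FPKM in DUSP6 KO spleens and at 5.72, 5.85, 5.90, 6.46 and 8.05 FPKM in WT. Here 3 of 5 DUSP6 KO libraries were below the lowest WT library, and DUSP6 KO 26 was above all WT libraries but 67. Its log2 fold change was -0.42 (SE 0.20, 95% confidence interval -0.86 to 0.03), with an adjusted p of 0.922 in limma, an unadjusted p of 0.0632 and an exact permutation p of 0.127. The unadjusted limma p was 0.0431 with limma voom, 0.0153 without DUSP6 KO 26 (log2 fold change -0.55) and 0.0448 without DUSP6 KO 21, and it was 0.143 without WT 67 (log2 fold change -0.33). Part of the Ccl9 transcript matched transcripts of other genes (96.3% identity with Baz1b over 163 bases). Reads there may be split between the genes. The level of Ccl6 over that of Ccl9 was 4.66 ± 0.875 (SD, n = 5) among DUSP6 KO spleens and 3.60 ± 0.856 (SD, n = 5) among WT, with overlapping ranges.

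Ccl2, or MCP-1, through which monocytes leave bone marrow and enter inflamed tissue, was close to the limit of depth, with 5 to 14 reads a library. It was at 0.420, 0.424, 0.446, 0.530 and 0.633 FPKM in DUSP6 KO spleens and at 0.264, 0.506, 0.514, 0.588 and 0.713 FPKM in WT. The DUSP6 KO values all fell inside the WT range. The log2 fold change was -0.03 (95% confidence interval -0.57 to 0.52, adjusted p of 0.998 in limma). The variance was 0.346 times that of counting alone in DUSP6 KO spleens and 1.04 times in WT, so no spread between animals was detectable beyond counting at this depth.

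Cxcl1 and Cxcl2, which act on Cxcr2, were the scarcest of the 10 chemokines. Cxcl1, or KC, had 2 to 12 reads a library in DUSP6 KO spleens and 2 to 6 in WT. It was at 0.0572, 0.182, 0.247, 0.295 and 0.354 FPKM in DUSP6 KO spleens and at 0.0642, 0.0893, 0.0936, 0.155 and 0.168 FPKM in WT. In 4 of 5 DUSP6 KO libraries it was above the highest WT library, and in DUSP6 KO 26 it was below the lowest. The difference was a log2 fold change of 0.55 (SE 0.35, 95% confidence interval -0.22 to 1.32, adjusted p of 0.953 in limma, exact permutation p of 0.0952), the only positive one among the 9. At these counts its size depends on the constant added before the logarithm, with 0.14 for a constant of 1 FPKM and 0.81 for 0.01 FPKM. Without DUSP6 KO 26 it was 0.79 with an unadjusted limma p of 0.0263 and an adjusted p of 0.765.

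Cxcl2, or MIP-2, did not pass the filter. It was at 0, 0, 0.0893, 0.117 and 0.249 FPKM in DUSP6 KO (0 to 10 reads) and at 0, 0.0280, 0.0540, 0.0566 and 0.101 FPKM in WT (0 to 4 reads). A count of 0 allows up to 3 reads in a library, so no difference was detectable at this depth (exact permutation p of 0.452). The transcripts of Cxcl2 and Cxcl3 were 90.7% identical over 550 bases, and reads could be assigned to either.

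Cxcl9, or MIG, and Cxcl10, or IP-10, had the narrowest confidence intervals of the 9 tested. Cxcl9 was at 7.40, 9.86, 10.9, 12.3 and 12.8 FPKM in DUSP6 KO spleens and at 9.77, 10.8, 10.8, 12.1 and 12.2 FPKM in WT. Its log2 fold change was -0.08 (SE 0.14, 95% confidence interval -0.40 to 0.23, adjusted p of 0.993 in limma), and the sign turned to 0.041 without DUSP6 KO 73, the lowest library. The DUSP6 KO libraries enclosed the WT libraries, with a coefficient of variation of 20.2% against 9.20%.

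Cxcl10 was at 6.29, 9.12, 9.30, 9.56 and 12.6 FPKM in DUSP6 KO spleens and at 8.52, 9.09, 9.51, 11 and 12.7 FPKM in WT. The log2 fold change was -0.13 (SE 0.17, 95% confidence interval -0.51 to 0.25, adjusted p of 0.993 in limma), -0.05 without WT 67 and 0.00036 without DUSP6 KO 01. Both groups overlapped, and only DUSP6 KO 01 was below the lowest WT library. Cxcl10 shares 133 exonic bases with the antisense gene Art3, which was at 0.751 ± 0.227 FPKM in DUSP6 KO spleens and 0.681 ± 0.0781 in WT spleens (SD, n = 5 each) and was looked up after the values were seen. The use of strand in the counting is not given in the sources used here. Cxcl9 and Cxcl10 are induced by interferon, and over the 10 libraries Cxcl9 and Cxcl10 had a Pearson r of -0.126, near 0 and without a test. DUSP6 KO 01 weighed on this value, as it was the lowest library for Cxcl10 (6.29 FPKM) and among the highest for Cxcl9 (12.3 FPKM). The ratio of Cxcl9 to Cxcl10 was 1.21 ± 0.483 (SD, n = 5) among DUSP6 KO spleens and 1.11 ± 0.170 (SD, n = 5) among WT.

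Among the 7 chemokines with a mean of at least 1 FPKM, 18 of 21 pairs had a positive r over the 10 libraries, with a median of 0.547. The highest were Ccl5 with Ccl6 (0.766) and Ccl3 with Ccl9 (0.745), and the lowest Cxcl9 with Cxcl10. These values describe 10 libraries of both genotypes and have no test. Of 11440 other protein-coding genes that averaged at least 1 FPKM, those most like Ccl3 were Ms4a4a (r = 0.973) and Gvin1 (0.921). For Ccl5 they were Jund (0.965) and Pfdn5 (0.964), for Ccl6 Akr1a1 (0.966) and Fcgrt (0.935), and for Ccl9 Slc1a4 (0.963) and Xndc1 (0.948). For Ccl4 they were Med28 (0.882) and Id2 (0.871), for Cxcl9 Prpsap1 (0.958) and Tagap1 (0.925), and for Cxcl10 Capza2 (0.932) and Mettl21a (0.931). Spearman's rho of these pairs ran from 0.733 (Mettl21a) to 0.964 (Ms4a4a). Without the 2 libraries farthest from the median of the chemokine, r ran from 0.839 (Capza2) to 0.956 (Pfdn5). They are the highest of 11440 genes over only 10 libraries, where some high r arises by chance, and they were not tested.

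Receptors and scavengers of these chemokines were read in the same fit. For this list and those below, 3.03% of all genes tested were lower and 2.62% higher at an unadjusted p under 0.05 in limma. Of 8 receptor genes, all were tested, none had an adjusted p of 0.05 or less in limma, and 1 was lower and 0 higher at an unadjusted p under 0.05, with a median log2 fold change of -0.11. The 1 was Ccr2, the receptor of Ccl2 on classical monocytes, at 6.80 ± 2.00 FPKM in DUSP6 KO spleens and 9.44 ± 1.72 in WT spleens (SD, n = 5 each; log2 fold change -0.50, unadjusted limma p of 0.0296). The count of 1 became 0 without DUSP6 KO 01, DUSP6 KO 03, DUSP6 KO 26 or WT 73, 2 without DUSP6 KO 73 and 4 without DUSP6 KO 21. Ackr2, a scavenger of CC ligands, had a log2 fold change of 0.43, Ccr1 one of -0.39 and Cxcr2, the neutrophil receptor, one of -0.47, with unadjusted limma p-values of 0.0750 to 0.135. The range of Cxcr3 (7.15 to 17.9 FPKM among DUSP6 KO and 10.8 to 12.7 FPKM among WT libraries) overlapped between the groups.

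Of 16 other inducible ligands, 11 passed the filter, none had an adjusted p of 0.05 or less in limma, and 2 were higher and 1 lower at an unadjusted p under 0.05, with a median log2 fold change of 0.08. Ccl24, or eotaxin-2, a ligand of Ccr3 made by macrophages, was at 4.09 ± 1.04 FPKM in DUSP6 KO spleens and 2.50 ± 1.26 in WT spleens (SD, n = 5 each). Its log2 fold change was 0.77, with an unadjusted limma p of 0.0220. Ccl7, a monocyte chemokine beside Ccl2, had 1 to 7 reads a library in DUSP6 KO spleens and 0 to 1 in WT. Ccl12, a further ligand of Ccr2, had 0 to 5 reads in DUSP6 KO spleens and 1 to 12 in WT. With libraries at 0 reads, no fold change is given for either. Ccl11, or eotaxin, had a log2 fold change of 0.76 (unadjusted limma p of 0.0921).

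Genes induced by the same signals showed no adjusted call in limma either. Of 16 NF-kB targets and inducers tested, 0 had an unadjusted p under 0.05, and the median log2 fold change was -0.04. The lowest p-values were those of Bcl3 (log2 fold change -0.32), Sod2 (0.14), Icam1 (0.15) and Rel (-0.21). The count of 0 became 1 without DUSP6 KO 03 or WT 77. Of 15 genes of the interferon gamma response, 1 was lower and 0 higher at an unadjusted p under 0.05, with a median of -0.15. It was Gbp2, a GTPase induced by interferon, at 15.5 ± 4.68 FPKM in DUSP6 KO spleens and 22.0 ± 2.79 in WT spleens (SD, n = 5 each), followed by Gbp5 (log2 fold change -0.20), Irgm2 (0.32) and Gbp3 (-0.18). The count of 1 became 3 without DUSP6 KO 21 and 2 without WT 77. Of 18 immediate early genes, 2 were higher and 0 lower, with a median of -0.03. They were Dusp1, a phosphatase of p38 and JNK (21.01 ± 4.72 against 13.1 ± 1.69 FPKM, SD, n = 5 each, log2 fold change 0.66), and Fos, a subunit of AP-1 (4.47 ± 2.20 against 2.08 ± 0.21 FPKM, log2 fold change 0.94). Both had values without overlap between the groups, against 1.11% of all genes tested. Egr2 (-0.29) and Nr4a2 (-0.37) were next.

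Markers of cells that make or follow these chemokines were read beside them. Of all genes tested, 3.03% were lower and 2.62% higher at an unadjusted p under 0.05 in limma. Genes of a cell type can vary together, so a count within a list is not a number of independent results. Of 8 classical monocyte genes, 5 were lower and 0 higher in the DUSP6 KO group at an unadjusted p under 0.05 in limma, with a median log2 fold change of -0.50. Their summed level was 149 to 204 FPKM in DUSP6 KO spleens and 229 to 364 FPKM in WT, without overlap. Vcan (-1.50) and F13a1 (-1.11) had separate groups, against 1.11% of all genes tested, and Ms4a4c (-0.48) and Chil3 (-1.04) followed. Over the 10 libraries, the mean log2 level of this list had r = 0.709 with Ccl3 (permutation p of 0.0239, adjusted 0.329, rho 0.636 with permutation p of 0.0550, adjusted 0.588) and r = 0.654 with Ccl9 (permutation p of 0.0386, adjusted 0.329, rho 0.539 with permutation p of 0.114, adjusted 0.636). Without the 2 libraries farthest from the median, r was 0.843 for Ccl3 and 0.416 for Ccl9. These relations pool both genotypes, so they include the difference between the groups. Among WT, the library with the highest sum of this list (WT 77, 364 FPKM) had the lowest Ccl3 (1.33 FPKM). Among DUSP6 KO, animals 73 and 21 had the highest sums (204 and 197 FPKM) and the highest Ccl3 (1.43 and 1.88 FPKM). The part of classical monocytes in the values of Ccl3 and Ccl9 was not tested.

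Of 10 neutrophil genes, 7 were lower and 0 higher at an unadjusted p under 0.05 in limma, against 3.03% and 2.62% of all genes tested. The median of the 10 was -1.11 on the log2 scale. Their summed level was 573 to 1957 FPKM in DUSP6 KO spleens and 1140 to 4827 FPKM in WT. The highest WT sum was that of WT 77, and the next was 2267 FPKM. S100a9 (-1.14), Mmp8 (-1.01), Cd177 (-1.09) and S100a8 (-1.13) led this list. The count of 7 became 1 without DUSP6 KO 01, 2 without DUSP6 KO 03 or WT 77, 3 without WT 73 and 4 without WT 83. Neutrophils carry Cxcr2. Over the 10 libraries, the mean log2 level of the neutrophil list had r = 0.414 with Ccl3 (permutation p of 0.238, adjusted 0.575). With Ccl9, r was 0.516 (permutation p of 0.129, adjusted 0.476). These relations pool the genotypes as well. The part of this list in the values of Ccl3 and Ccl9, which were also lower on average, was not tested. Of 10 basophil and mast cell genes, 2 were higher (Mcpt4 with a log2 fold change of 2.40 and Tpsb2) and 4 lower (among them Prss34 with -2.13, Mcpt8 with -1.67 and Ms4a2 with -0.996), with a summed level of 13.6 to 20.3 FPKM in DUSP6 KO spleens and 19.2 to 47.5 FPKM in WT. Of 7 megakaryocyte and platelet genes tested, 2 were lower (Pf4, itself a CXC chemokine of platelets, with -0.52, and Itga2b with -0.49), and Gp6 (-0.44) and Itgb3 (-0.33) followed. Without WT 67, 6 had an unadjusted p under 0.05. Their summed level was 232 to 332 FPKM in DUSP6 KO spleens and 222 to 517 FPKM in WT. No gene of these lists had an adjusted p of 0.05 or less in limma.

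The remaining cell types gave few calls. Of 10 red pulp macrophage genes, 2 were higher at an unadjusted p under 0.05 (Adgre1, or F4/80, with a log2 fold change of 0.38, and Cd163 with 0.39), with Vcam1 (-0.11) and C1qa (0.10) next. Of 10 dendritic cell genes, 1 was higher (Siglech, of plasmacytoid cells, with 0.34), and Flt3 (-0.29), Fscn1 (0.21) and Zbtb46 (0.18) followed. That count became 0 without DUSP6 KO 03, DUSP6 KO 21 or WT 65 and 2 without DUSP6 KO 73. Of 11 NK and cytotoxic T cell genes none had an unadjusted p under 0.05 (1 had without DUSP6 KO 26 or WT 77). Their median log2 fold change was -0.13, with Gzma (-0.53), Nkg7 (-0.20), Cd8b1 (0.20) and Klrb1c (-0.21) first, and their summed level was 125 to 224 FPKM in DUSP6 KO spleens and 137 to 247 FPKM in WT. None of 6 B cell genes had one, with a median of -0.18 and Ms4a1 (-0.28) first, then Cd79a (-0.23), Cd79b (-0.18) and Cd22 (-0.18), and 1 had one without WT 77. Of 10 stroma genes, 1 was lower (Lum with -1.57) and 1 higher (Pdgfrb with 0.57), and Dcn (-0.55) and Pdpn (-0.99) followed. Together they became 4 without DUSP6 KO 26 or DUSP6 KO 73. None of 10 exocrine pancreas genes had one, with Prss2, Cela2a, Ctrb1 and Pnlip first, and WT 67 and WT 65 held nearly all of their signal.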

How the data were processed

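Poly-A RNA of 10 mouse spleens (5 DUSP6 KO, 5 WT, 400 ng RNA each) had been sequenced with paired ends, 1 library per animal. The authors used Hisat2 for alignment and featureCounts 1.5.0-p3 for counting, and deposited FPKM values derived from each count and gene length. The processing notes name the human build hg38, but the gene IDs are mouse, and 98.3% of the genes shared with GENCODE M21 (GRCm38) have identical coordinates. The product of FPKM and length was a whole multiple of 1 step per library (100% of values within 0.001 read or 1e-06 of the value), which gave the reads. The deposited values also carry a factor per library of 0.890 to 1.05 against the total of recovered reads. Its origin is not given in the sources used here.

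The groups were compared on log2(FPKM + 0.1) in limma 3.58.1 (R 4.3.3, a linear model of genotype without covariates, moderated with a trend). The 21296 genes averaging 0.1 FPKM or more were tested, and p-values were adjusted by Benjamini-Hochberg (threshold 0.05). For single genes, a two-sided exact permutation test of 5 against 5 FPKM values was added (252 splits). A fold change on the log2(FPKM + 0.1) scale understates that of low genes. Correlations were computed over 10 libraries with 100000 permutations. In simulated data of this comparison (20984 genes), 80.0% of genes set at 0.5-fold and 90.0% of genes set at 2-fold were recovered. The simulation gave every gene the same spread beyond counting (a dispersion of 0.0251) and changed only genes above a minimum of reads. These shares therefore do not hold for chemokines that varied more between spleens or had few reads. Transcripts were aligned with blastn 2.17.0, and tables and figures were made with Python 3.11.15, pandas 2.3.3, numpy 2.4.6 and matplotlib 3.10.9.

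The chemokines, the 5 related gene lists (receptors, other inducible ligands, NF-kB targets and inducers, interferon gamma response, immediate early genes) and the 10 marker lists were chosen with earlier results of these data known. Named genes are the 10 chemokines, the 4 genes of each list with the lowest unadjusted limma p, the 2 genes most like each chemokine of at least 1 FPKM, and Dusp6. Cxcr3, Tpsb2, Art3, Cxcl3 and Baz1b fall outside this rule and were named after their values were seen. 1 receptor gene is not reported here. Alternatives were other pseudocounts, filters and normalizations, limma voom on the recovered reads, each library left out, and values rescaled to total reads, which was added after seeing the data.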

Additional observations from a re-analysis of the deposited data

Results flagged for a closer look

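No chemokine had a library outside Dixon's 95% limit for 5 samples. Of 62 groups of values examined, 6 had a highest library beyond it, and chance alone flags about 1 in 20 groups. WT 67 had the most reads of the WT group (18422147, against 15611652 to 16348136 in the other 4) and a summed exocrine pancreas level of 15977 FPKM. WT 77 had a classical monocyte sum of 364 FPKM (229 to 257 in the other WT libraries) and a basophil and mast cell sum of 47.5 FPKM (19.2 to 26.9). It was also the lowest WT library for 8 of the 10 chemokines, all but Ccl9 and Cxcl10. DUSP6 KO 21 had a megakaryocyte and platelet sum of 332 FPKM (232 to 260 in the other DUSP6 KO libraries) and a stroma sum of 265 FPKM (62.3 to 93.7).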

How the results depend on the processing

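Ccl3 was lower in DUSP6 KO with an unadjusted p of 0.00229 to 0.0207 under all 19 alternatives, with log2 fold changes of -1.29 to -0.69, and its adjusted p ran from 0.342 to 0.941 in limma. No chemokine had an adjusted p of 0.05 or less under any of them. The lowest adjusted p in limma was 0.660 for Ccl4, 0.666 for Ccl9 and 0.765 for Cxcl1, each without DUSP6 KO 26. The number of chemokines at an unadjusted p under 0.05 was 2 with limma voom (Ccl3 and Ccl9) and 1 to 4 when each library was left out. The number of genes at an unadjusted p under 0.05 was 1205 and became 758 with a minimum mean of 1 FPKM, where 13422 genes were tested. With each library left out, the log2 fold change ran from -0.21 to 0.082 for Ccl2, from -0.20 to 0.16 for Ccl6, from -0.15 to 0.041 for Cxcl9 and from -0.25 to 0.00036 for Cxcl10, so that the sign of each turned. It was positive for Ccl2 without DUSP6 KO 26 or 73 or WT 73 or 83, for Ccl6 without DUSP6 KO 01 or WT 67, for Cxcl9 without DUSP6 KO 73 and for Cxcl10 without DUSP6 KO 01. That of Ccl2 turned to 0.0062 with quantile normalization. The cause was not tested. With quantile normalization 650 genes were higher and 574 lower at an unadjusted p under 0.05, against 559 and 646. Ccl2 and Cxcl1 fell below the minimum mean of 1 FPKM, so 7 chemokines were tested there. Depth limits Ccl2, Cxcl1 and Cxcl2, with at most 14 reads in any library. No paired analysis was possible because the groups share only 1 animal number (73).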
